A study of Mus musculus with 6 samples.

Results

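The miRNAs described here are 8 mature arms that textbooks group as p53-linked: mmu-miR-34a-5p, mmu-miR-34b-5p, mmu-miR-34b-3p, mmu-miR-34c-5p, mmu-miR-34c-3p, mmu-miR-192-5p, mmu-miR-194-5p and mmu-miR-215-5p, written without the mouse prefix from here on. They were picked by name, with earlier results of these data known, from 911 mature miRNA references in small RNA sequencing of mouse macrophages, and 7 of the 8 had reads in at least 1 library. The tables came from 3 libraries of ApoE-knockout (EKO) and 3 of wild-type (WT) bone-marrow-derived macrophages, and the series design calls the replicates biological. ApoE is a secreted lipid-carrier protein, and the series asked which miRNAs differ when it is missing. Marrow of both genotypes came from male mice aged 6 to 12 weeks and grew in DMEM with 10% fetal bovine serum. The cultures received 25 ng/mL of M-CSF, the growth factor that turns marrow cells into macrophages, at intervals of 2 days over 6 days. The labels name neither the mouse strain nor the form of the ApoE allele, and these counts hold no Apoe mRNA with which to check the genotype.

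p53 is a transcription factor that responds to DNA damage and other stress, and it stops the cell cycle or starts cell death. The 3 miR-34 genes are among its direct targets, and their guide strands repress transcripts that drive proliferation and survival, such as those of Cdk6, Ccnd1, Met and Bcl2. In human cells p53 also raises miR-192, miR-194 and miR-215, which are abundant in liver, kidney and gut epithelium, where HNF1 and HNF4 factors drive them. miR-34b and miR-34c are known for testis and ciliated epithelium, and miR-34a is the broadly expressed member.

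The mature sequences show which of these miRNAs read the same target sites, since a miRNA recognises transcripts mainly through its seed, bases 2 to 8, printed in capitals (RefSeq, GRCm38.p6). The table held 7 of the 8 mature sequences, and miR-34c-5p was not among them.
miR-34a-5p: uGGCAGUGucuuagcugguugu
miR-34b-5p: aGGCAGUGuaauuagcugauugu
miR-34b-3p: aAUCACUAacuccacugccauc
miR-34c-3p: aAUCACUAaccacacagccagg
miR-192-5p: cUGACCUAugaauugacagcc
miR-215-5p: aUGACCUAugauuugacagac
miR-194-5p: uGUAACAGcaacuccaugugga

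The seed of miR-34a-5p and miR-34b-5p was shared in that table by miR-449a-5p and miR-449c-5p, miRNAs of ciliated epithelium that are not among the 8. miR-192-5p and miR-215-5p shared a seed, were identical at 18 of 21 bases and differed by C1A, A12U and C20A (positions from the 5′ end, the base of miR-192-5p first). No other mature miRNA of the table carried the seed of miR-194-5p.

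Their genes lie in 4 places (GRCm38). Mir34a, at chr4:150068454-150068555 on the plus strand, overlaps an exon of the unclassified transcript Gm37795. Mir34b and Mir34c lie 451 bases apart on the minus strand of chromosome 9, within an intron of Btg4, which runs on the opposite strand. Mir194-1 and Mir215 lie 195 bases apart on the plus strand of chromosome 1, within an intron of the oppositely oriented Iars2 and within the antisense gene 2010103J01Rik. Mir194-2 and Mir192 lie 115 bases apart on the plus strand of chromosome 19, where GENCODE M21 places no other gene. The mature miR-194-5p is therefore encoded in both of the last pairs, and its reads cannot be assigned to either.

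Depth ranged from 34651516 to 39532548 reads on mature miRNAs in the EKO libraries and from 38440296 to 41331600 in the WT libraries, and levels are given as CPM, reads per 1000000 of these. A library can hold fewer cells of a type or less of a miRNA per cell, and these cannot be told apart here. Of 575 miRNAs tested with edgeR's quasi-likelihood test, 0% passed a Benjamini-Hochberg adjusted p of 0.05. At an unadjusted p under 0.05, 75 had lower values (13%) and 48 higher values (8.35%) in EKO, and the median log2 fold change was -0.16. DESeq2 called 100 of 699 miRNAs and limma-voom 32 of 575. Of 7 miRNAs listed for macrophages and other myeloid cells, all had reads in both genotypes. Their summed level was 141337 to 168554 CPM in EKO and 213427 to 226622 CPM in WT, nearly all of it miR-21a-5p. The sum thus follows miR-21a-5p and cannot stand for the list or for the share of myeloid cells. Of the 7, 6 had lower and 1 higher values in EKO, and 5 of the lower and the 1 higher had an unadjusted p under 0.05. The higher one was miR-223-5p, a myeloid miRNA and the second most abundant of the list. It stood at 2673, 2880 and 2731 CPM in EKO and 2162, 2006 and 1959 CPM in WT (log2 fold change 0.46 ± 0.10, SE, edgeR adjusted p = 0.0766). The other arm, miR-223-3p, had lower values, at 227, 264 and 281 CPM in EKO and 345, 349 and 520 CPM in WT (log2 fold change -0.62 ± 0.17, SE, edgeR adjusted p = 0.0848). The macrophage miRNA miR-511-5p was low, at 0.0759 to 1.62 CPM in EKO and 4.53 to 6.73 CPM in WT.

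miR-34a-5p, the main miR-34 member in these cells, was lower in every EKO library than in any WT library. It stood at 16.0, 19.1 and 19.3 CPM in the EKO libraries, against 27.7, 46.4 and 32.6 CPM in the WT libraries. The means were 18.1 ± 1.88 CPM in EKO and 35.5 ± 9.71 CPM in WT (SD, n = 3 each), from 553 to 756 reads per EKO library and 1064 to 1918 reads per WT library. The EKO values lay close together and the WT values were spread, with WT replicate 2 the highest. The log2 fold change was -0.95 ± 0.29 (SE), with a 95% interval from -1.61 to -0.29. It did not pass over all miRNAs (edgeR adjusted p = 0.104, unadjusted p = 0.0103). Such a separation of the groups on the lower side was found for 17.7% of the tested miRNAs, and an unadjusted p under 0.05 on that side for 13%. When only the 251 miRNAs with a mean of 10 CPM or more were tested, the edgeR adjusted p was 0.0496, just under the threshold. In that setting 59 of the 251 passed. Over the other alternatives the adjusted p of miR-34a-5p ranged from 0.0545 to 0.329. Without WT replicate 2 the log2 fold change was -0.66.

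**Figure D1:**
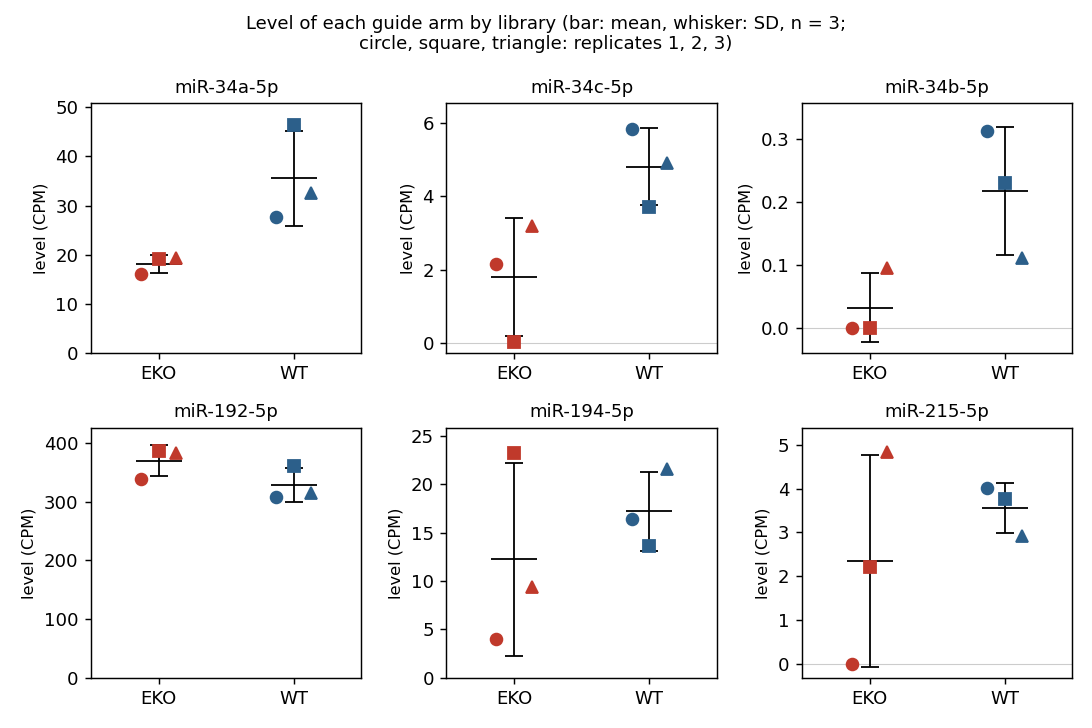
Level in CPM of the 6 guide (5p) arms in each library, with EKO left of WT, points for the 3 replicates, a bar for the mean and a whisker for 1 SD; the vertical scale differs between panels. The EKO points of miR-34a-5p sit between 16.0 and 19.3 CPM, all below the WT points, whereas those of miR-192-5p, miR-194-5p and miR-215-5p overlap the WT points.

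miR-34c-5p, made from the Mir34b/Mir34c locus, was rarer than miR-34a-5p in every library, with 7.37, 756 and 6.04 reads of miR-34a-5p to 1 of miR-34c-5p in EKO and 4.75, 12.5 and 6.64 in WT. It stood at 2.16, 0.0253 and 3.20 CPM in EKO, against 5.83, 3.71 and 4.90 CPM in WT. The EKO values are 75, 1 and 118.5 estimated reads, those of WT 224, 153.5 and 200.5. The groups did not overlap, as on the lower side for 17.7% of the tested miRNAs. The EKO values were widely spread, and 1 of them rests on a single read. The log2 fold change was -1.39 ± 1.30 (SE), with a 95% interval from -4.38 to 1.60 (edgeR adjusted p = 0.702), so a change of either sign lies within the error. Without EKO replicate 2, the library with the single read, it was -0.80.

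No read was specific to miR-34b-5p. Its estimated reads were 0, 0 and 3.5 in EKO and 12, 9.5 and 4.5 in WT. In each of the 4 libraries with such reads they formed a single distinct read sequence, and every read was divided in 2 with miR-34c-5p. The reads of miR-34b-5p thus cannot be told from those of miR-34c-5p, whereas most reads of miR-34c-5p were not shared. miR-34b-5p missed the low-count filter of the test. The opposite arms were near or at 0. miR-34b-3p had 16 reads in WT replicate 3 and 0 in the other libraries, and miR-34c-3p had none in any. miR-34a-3p, the opposite arm of Mir34a, had 12 reads in WT replicate 1 alone. A count of 0 allows up to 3 reads, or 0.0726 to 0.0866 CPM across these libraries, counting error only.

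Summed over the 3 guide arms miR-34a-5p, miR-34b-5p and miR-34c-5p, the miR-34 family reached 18.1, 19.1 and 22.6 CPM in EKO and 33.8, 50.3 and 37.6 CPM in WT. miR-34a-5p made up 88.1, 99.9 and 85.4% of this sum in EKO and 81.8, 92.2 and 86.7% in WT. The sum thus follows miR-34a-5p and shows no more than it. The seed relatives of ciliated epithelium added little: miR-449a-5p had reads only in WT replicate 3, at 0.318 CPM, and miR-449c-5p stood at 0.0270 CPM in EKO replicate 3 and 1.47 CPM in WT replicate 3, with no reads elsewhere.

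miR-192-5p was by far the most abundant of the 8 and differed little between the genotypes. It stood at 339, 387 and 383 CPM in EKO, against 308, 362 and 315 CPM in WT. The groups overlapped, with means of 370 ± 26.6 CPM in EKO and 328 ± 29.2 CPM in WT (SD, n = 3 each). By level it ranked between 77 and 80 in the EKO libraries and between 83 and 92 in the WT libraries, where 543 to 591 and 668 to 698 references had reads. The log2 fold change was 0.20 ± 0.13 (SE), and its 95% interval ran from -0.11 to 0.50 (edgeR adjusted p = 0.514). With 11751 to 15303 reads in EKO and 11843 to 14948 in WT, this is the best-measured member, and its interval leaves out changes as large as the fitted value of miR-34a-5p.

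miR-215-5p, which has the same seed as miR-192-5p but is encoded on chromosome 1, was rare. It stood at 0, 2.20 and 4.83 CPM in EKO, against 4.01, 3.75 and 2.91 CPM in WT. EKO replicate 1 held no read of it, whereas EKO replicate 3 had the highest value of the 6 libraries. The log2 fold change was -0.62 ± 1.52 (SE), with a 95% interval from -4.13 to 2.89 (edgeR adjusted p = 0.923), and it was -0.02 without EKO replicate 1. miR-192-5p made up 98.7% or more of the reads on this seed family in every library, and 100% in EKO replicate 1. Between the libraries with reads on both, the ratio of miR-192-5p to miR-215-5p was 176 and 79.3 in EKO and 76.9, 96.4 and 108 in WT, so these ranges overlapped.

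miR-194-5p, encoded at both loci, varied widely among the EKO libraries. Its levels were 3.98, 23.3 and 9.41 CPM in EKO, against 16.4, 13.6 and 21.6 CPM in WT. EKO replicate 2 had the highest value of all and EKO replicate 1 the lowest, so the WT values lie within the EKO range. The means were 12.2 ± 9.95 CPM in EKO and 17.2 ± 4.06 CPM in WT (SD, n = 3 each), with a log2 fold change of -0.48 ± 0.58 (SE), a 95% interval from -1.83 to 0.87 and an edgeR adjusted p of 0.788. Leaving out EKO replicate 1 gave -0.07 and leaving out EKO replicate 2 gave -1.32, neither of which passed.

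**Figure D2:**
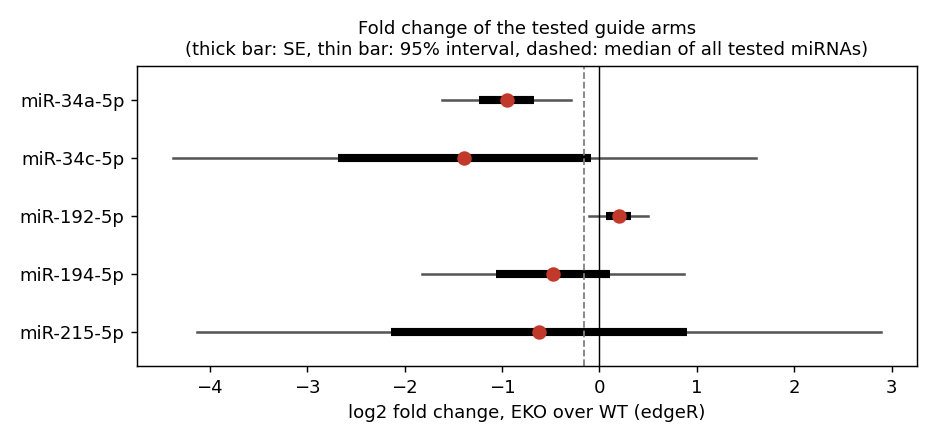
Log2 fold change (EKO over WT, edgeR) of the 5 tested arms, with the SE as a thick bar, the 95% interval as a thin bar, and the median of all tested miRNAs as a dashed line at -0.16. The interval of miR-34a-5p, from -1.61 to -0.29, lies below 0, and the intervals of the other 4 include 0.

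The 3p arms tell the 2 miR-194 hairpins apart, as the bases in capitals differ between them.
miR-194-1-3p: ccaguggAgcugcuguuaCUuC
miR-194-2-3p: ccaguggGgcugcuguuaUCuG
These positions are A8G, C19U, U20C and C22G, counted from the 5′ end with the base of miR-194-1-3p first. miR-194-1-3p, from chr1:185313360-185313381, had no read in any library. miR-194-2-3p, from chr19:6264694-6264715, had 47, 0 and 12 reads in EKO and 78, 113 and 80 reads in WT. This is 1.36, 0 and 0.324 CPM in EKO and 2.03, 2.73 and 1.96 CPM in WT (log2 fold change -1.92 ± 1.73, SE, edgeR adjusted p = 0.684). The groups did not overlap, as on the lower side for 17.7% of the tested miRNAs. The EKO reads formed only 2, 0 and 2 distinct sequences. Within EKO the 3p arm did not follow miR-194-5p. EKO replicate 1 had the most 3p reads but the lowest miR-194-5p, and EKO replicate 2 had 0 but the highest. The 3p reads show which locus left a detectable 3p arm, not the share of miR-194-5p that each locus made. The opposite arms of Mir192 and Mir215 had no reads in any library.

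Within a library, ratios do not depend on the scaling between libraries. For 1 read of miR-34a-5p there were 21.2, 20.2 and 19.8 reads of miR-192-5p in EKO and 11.1, 7.79 and 9.66 in WT, a pair chosen after its values were seen. The EKO ratios lay close together and above all WT ratios. As miR-192-5p differed little between the genotypes, this ratio restates the lower miR-34a-5p and shows no more than it. How many other pairs separate in this way was not counted. The ratio of miR-192-5p to miR-194-5p, neighbours on chromosome 19, was 85.2, 16.6 and 40.7 in EKO and 18.8, 26.6 and 14.6 in WT. Those ranges overlapped, and the EKO libraries differed among themselves by more than the WT libraries did.

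The tables also give the number of distinct read sequences on each reference, which counts end and base variants and sequencing errors, and which grows with the reads. For miR-34a-5p there were 23, 23 and 37 in EKO against 51, 76 and 70 in WT. miR-34c-5p had 1, 1 and 6 in EKO against 13, 8 and 15 in WT, so the 75 reads of EKO replicate 1 were copies of 1 sequence. miR-194-5p had 9, 27 and 22 in EKO against 34, 31 and 40 in WT. For miR-192-5p they numbered 147, 208 and 195 in EKO against 209, 223 and 235 in WT, although its CPM was not lower in EKO. These 4 arms had fewer distinct sequences in every EKO library than in any WT library, which also held for 32.5% of the tested miRNAs, and only 1.22% stood apart the other way. The libraries differed as a whole, with 48275 to 57650 distinct sequences on mature miRNAs in EKO and 62572 to 67508 in WT. The part of this difference in the lower values of rare arms was not tested.

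**Figure D3:**
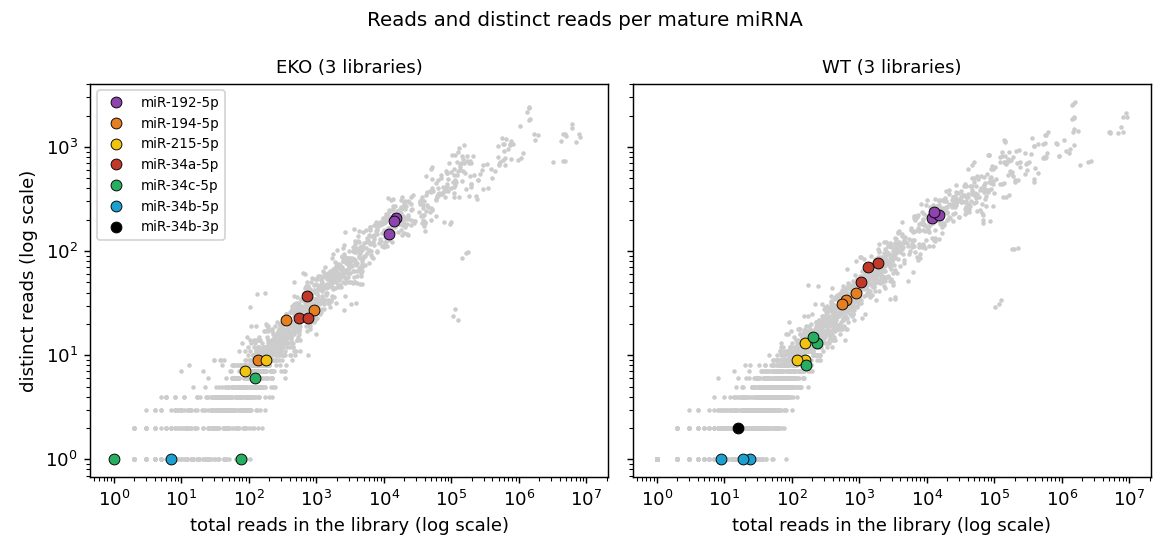
Total reads (log scale) against distinct reads (log scale) for each mature miRNA in each library, with the 3 EKO libraries on the left and the 3 WT libraries on the right; grey points are all other miRNAs. miR-192-5p lies at 147 to 208 distinct reads in EKO and 209 to 235 in WT, whereas miR-34c-5p falls to 1 distinct read in each of 2 EKO libraries.

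Since miR-192, miR-194 and miR-215 are known for liver and epithelium, miRNAs of those tissues were set beside them. Of 2 hepatocyte miRNAs, miR-122-5p stood at 154, 101 and 102 CPM in EKO and 58.8, 49.4 and 47.2 CPM in WT, and miR-122-3p had no reads. Its log2 fold change was 1.24 ± 0.25 (SE, edgeR adjusted p = 0.0766), and its groups did not overlap, as on the higher side for 11.8% of the tested miRNAs. Of 8 miRNAs of gut, kidney and other epithelium, 7 had reads in each genotype, and miR-375-3p, of gut endocrine cells and pancreatic islets, had none. Their summed level was 116, 151 and 183 CPM in EKO and 149, 159 and 147 CPM in WT, so the groups overlapped. Of 3 erythroid miRNAs, 2 had reads in each genotype and miR-144-3p had none, with sums of 145, 117 and 125 CPM in EKO and 160, 127 and 135 CPM in WT. Most of that sum was the joint entry of miR-486a-5p and miR-486b-5p. miR-451a, the other one with reads, stood at 5.92, 5.31 and 1.29 CPM in EKO and 0, 0 and 0.587 CPM in WT, groups that did not overlap (edgeR adjusted p = 0.260). The part of any of these lists in the levels of miR-192-5p, miR-194-5p or miR-215-5p was not tested.

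Other miRNAs tied to p53 were listed by role, from work mostly in human cells, and none of them passed over all miRNAs. Of 8 that p53 induces or helps to mature, 7 were tested, 6 had lower and 1 higher values in EKO, and 4 had an unadjusted p under 0.05, all lower (13% of all tested miRNAs). Their median log2 fold change was -0.82, against -0.16 over all. miR-143-3p, whose processing p53 aids, stood at 115, 77.4 and 73.8 CPM in EKO and 185, 211 and 165 CPM in WT (-1.04 ± 0.24, SE, edgeR adjusted p = 0.0777). miR-22-3p, a p53 target that represses the p21 transcript, stood at 1054, 1027 and 1354 CPM in EKO and 1451, 1499 and 1822 CPM in WT (-0.45 ± 0.14, edgeR adjusted p = 0.105). For both, all EKO values lay below all WT values, as for 17.7% of the tested miRNAs. Both were named for having the smallest p of their list.

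The miR-17-92 polycistron is repressed by p53 and promotes proliferation. Most of its listed miRNAs had lower values, but the most abundant of the list did not. Other arms of it with reads, such as miR-17-3p and miR-18a-3p, were not listed. Whether other loci also encode the listed arms was not looked up. All 6 listed miRNAs were tested, 5 had lower and 1 higher values in EKO, and 3 had an unadjusted p under 0.05, all lower (13% of all tested miRNAs), with a median log2 fold change of -0.96. The one with higher values, miR-92a-3p, stood at 17320, 16503 and 15089 CPM in EKO and 14496, 13849 and 15171 CPM in WT, groups that overlapped (0.20 ± 0.11, SE, edgeR adjusted p = 0.365). It carried nearly all reads of the list, whose summed level was 16932 ± 871 CPM in EKO and 15826 ± 1021 CPM in WT (SD, n = 3 each). The smallest p in the list was that of miR-19b-3p, at 16.2, 29.1 and 22.0 CPM in EKO and 67.1, 57.9 and 84.2 CPM in WT (-1.61 ± 0.26, edgeR adjusted p = 0.0766). Next was miR-17-5p, at 157, 213 and 325 CPM in EKO and 459, 407 and 640 CPM in WT (-1.09 ± 0.26, edgeR adjusted p = 0.0766). The 5 miRNAs that target the p53 transcript were divided, 3 with lower and 2 with higher values in EKO and a median of -0.06, and 2 had an unadjusted p under 0.05, both lower. Among them miR-125a-5p stood at 87.5, 82.7 and 187 CPM in EKO and 343, 257 and 439 CPM in WT (-1.51 ± 0.32, edgeR adjusted p = 0.0766). miR-125b-5p, with the same seed, stood at 129, 163 and 168 CPM in EKO and 242, 219 and 270 CPM in WT (-0.65 ± 0.14, edgeR adjusted p = 0.0766). Lower values were found for 6 of the 7 tested miRNAs that p53 induces and 5 of the 6 that it represses. Over all tested miRNAs this share was 58.3%. The repressed ones were all listed for the same polycistron, and the lists were chosen with earlier results known. A part of p53 in these values was not tested.

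**Figure D4:**
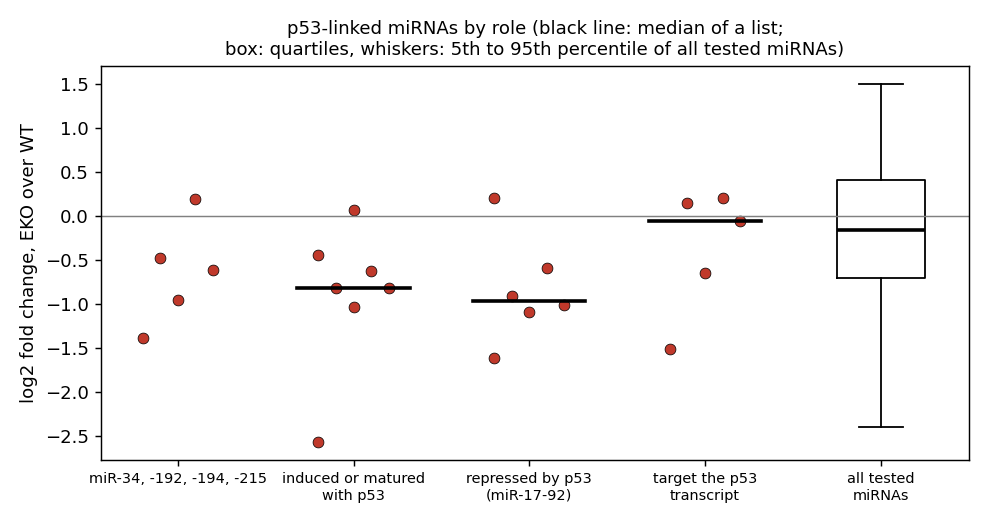
Log2 fold change (EKO over WT, edgeR) of the tested miRNAs by role, with a black line at the median of each list fixed by role and, at the right, a box of quartiles with whiskers from the 5th to the 95th percentile over all 575 tested miRNAs. The medians are -0.82 for miRNAs induced or matured with p53, -0.96 for the miR-17-92 miRNAs and -0.06 for those that target the p53 transcript, against -0.16 over all tested miRNAs.

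Likeness to other miRNAs was measured as the root-mean-square difference of centred log2(CPM + 1) values over the 6 libraries. For this, CPM was scaled by the TMM factors of the edgeR fit, and the 3 members averaging at least 10 CPM were compared. Closest to miR-34a-5p, among 248 miRNAs, were the joint entry of miR-28a-5p and miR-28c (0.152), miR-96-5p (0.242) and miR-21a-5p (0.272), where the median over all was 0.535. miR-28a-5p/miR-28c averaged 33.1 CPM in EKO and 55.0 CPM in WT. Closest to miR-192-5p were miR-361-3p (0.0587), let-7i-5p (0.0699) and miR-7b-5p (0.0754), where the median over all was 0.374. All of them had small differences between the genotypes. miR-192-5p itself varied little, with a root-mean-square of 0.142 around its mean, so other miRNAs that vary little lie close to it. The nearest to miR-194-5p, miR-503-3p, differed from it by 0.335, followed by miR-5100 (0.365) and miR-362-5p (0.398), where the median over all was 0.793.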

How the data were processed

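The authors deposited 1 table per library of reads matched in sense to mature miRNAs and stem-loops, on genome build mm9 per the submitters' processing notes; an aligner or counter is not given in the sources used here. Per the labels' protocols, total RNA from RNeasy Mini columns went into an NEB small RNA library kit. Columns of this kind can lose small RNA, and ligation and PCR favour some sequences, so levels of different miRNAs are not on a common scale. Per the file headers, the deposited columns are counts of distinct reads, total read counts, estimated counts in which multi-matching reads are divided among references, and molecular-barcode counts. The barcode counts summed to 0, so PCR copies were not removed.

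The estimated counts, rounded for tests, were used, with a missing reference as 0 and the 73 stem-loop references left out. No member was part of a joint entry. edgeR 4.0.16 in R 4.3.3 was run over all mature miRNAs with TMM, filterByExpr by genotype (minimum count 10), the quasi-likelihood test and Benjamini-Hochberg adjustment at 0.05, and was tested on simulated data. The SE is the log2 fold change divided by the square root of F, and its interval uses the fit's degrees of freedom. Replicates of 1 genotype differed by far more than counting error, since chi-square divided by its degrees of freedom was 222 to 1817. The members and lists were chosen with earlier results of these data known. Named are all members, their opposite arms, seed relatives, up to 2 miRNAs per p53 list with the smallest p, marker miRNAs, miR-92a-3p (chosen after its values were seen), and the 3 miRNAs most alike to each member averaging at least 10 CPM. Annotation came from GENCODE M21 and RefSeq (GRCm38.p6), matched by name, with no coordinates converted. Alternatives were DESeq2 1.42.0, limma-voom (limma 3.58.1), other scalings and filters, total read counts, leaving out each library, and a block for the replicate number.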

Additional observations from a re-analysis of the deposited data

How the results depend on the processing

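The number of miRNAs called over the whole table depended on the test and the filter. Against 0 calls with edgeR, DESeq2 called 100 miRNAs, limma-voom 32, no low-count filter 52 and a mean of at least 10 CPM 59. DESeq2 size factors, library totals only and total read counts each gave 0. Leaving out 1 library gave 0 to 45 calls, with the 45 without EKO replicate 3. With the replicate number as a block there were 62 calls. After subtraction of the group means, libraries with the same number had correlations of 0.0146, -0.0276 and 0.0893. The EKO libraries 1, 2 and 3 correlated best with WT libraries 2, 1 and 3. With 3 libraries per genotype, these values cannot tell whether libraries of the same number share a preparation. The cause of the differences in the number of calls was not tested. For the 5 tested members, of which miR-34c-5p and miR-215-5p fall below 10 CPM, 68 log2 fold changes under alternatives all kept their direction, and 67 stayed on the same side of the threshold. The other was miR-34a-5p among miRNAs averaging at least 10 CPM (adjusted p = 0.0496), and with the block it did not pass (adjusted p = 0.108). The fitted values of the rare arms moved most, from -2.94 with limma-voom to -0.80 for miR-34c-5p and from -2.54 to -0.02 for miR-215-5p, so at 0 to 224 estimated reads per library no size can be given for them. The EKO minus WT difference in summed CPM kept its sign in all 24 alternatives. For the miR-34 family, leaving out 1 library could not change the sign, as all EKO sums lay below all WT sums. The difference moved between -24.0 and -15.7 for that family on leaving out 1 library (-20.6 with all). For miR-192-5p plus miR-215-5p it moved between 30.6 and 57.2 (40.4 with all). For miR-194 it was -4.96 with all, -0.840 when EKO replicate 1 was left out, -10.5 when EKO replicate 2 was, and -2.76 when WT replicate 3 was. Barcodes were not counted, so reads copied from few molecules cannot be recognised.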
